A study of Mus musculus with 8 samples.

Results

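The NF-kB transcription factors and genes grouped as their inhibitors were followed here through 10 genes, chosen by name. The 5 subunits are Nfkb1, Nfkb2, Rel, Rela and Relb, and the 5 genes counted as inhibitors are Nfkbia, Nfkbie, Nfkbiz, Tnfaip3 and Tnip1. Nfkbiz is counted with them although its product acts in the nucleus on selected targets. All 10 were among the 19685 genes listed for long-term haematopoietic stem cells (LT-HSC) and the 18904 listed for multipotent progenitors (MPP), and all 10 passed the filter on low counts in both. RNA sequencing covered 4 groups of 2 libraries each, LT-HSC KO with LT-HSC WT, and MPP KO with MPP WT. KO cells came from mice transplanted with Tet1 KO bone marrow, and WT cells from mice transplanted with WT marrow. Tet1 is an enzyme that oxidises 5-methylcytosine in DNA. In all 4 groups the mice were 6 months old, carried the strain label CD57BL/6 and were taken 20 weeks after the transplant. The cells were flow sorted from bone marrow, 10000 per LT-HSC library and 100000 per MPP library, and polyA RNA was sequenced. The labels give neither the sort gates, nor the deleted part of Tet1, nor the share of host cells, and they do not say that the 2 libraries of a group came from separate animals. The p-values therefore measure the spread between libraries, which may be technical.

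In resting cells, NF-kB dimers are kept in the cytoplasm by inhibitors of the IkB family, chiefly the product of Nfkbia. Signals from receptors of the TNF, interleukin 1 and Toll-like families activate the IKK kinases, IkB is degraded, and dimers such as the one of RELA with the processed product of Nfkb1 enter the nucleus. Several of the genes switched on there, among them Nfkbia and Tnfaip3, encode brakes, so that the response limits itself. In haematopoietic stem cells the pathway is known for roles in self-renewal and in the response to inflammatory signals.

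NF-kB dimers bind kappaB sites, and the promoters of 7 of the 10 genes could be read from RefSeq (build GRCm38.p6, 250 bases before to 50 bases after each start). A kappaB motif of 10 bases, searched on both strands, was found in 6 of the 7 genes, and in 8 of their 10 promoters. The same motif was in 8.46% of all 32851 promoters, and in 9.55% of 27025 genes by at least 1 promoter. Overlapping matches and windows that overlap, as those of Nfkb2 do, were each counted. Shown are the promoters of Tnfaip3 and Nfkbia, which had the lowest log2 fold changes of the 10 in LT-HSC KO, of Tnip1, which holds the motif and did not pass the test of KO against WT in either population, and of Rela, in whose window these letters were not found. Nfkbie, not shown, also holds the motif and did not pass that test in either population. Capitals mark the motif, and each sequence runs 5′ to 3′ on the gene's strand. The Tnfaip3 promoter lies at chr10:19015361-19015660 on the minus strand, with matches that begin 125 and 12 bases before the start. A second Tnfaip3 promoter in RefSeq held no match. The Nfkbia promoter lies at chr12:55492598-55492897 on the minus strand, with a match that begins 29 bases before the start. The Tnip1 promoter lies at chr11:54962891-54963190 on the minus strand, with 3 overlapping matches that begin 58, 57 and 56 bases before the start. The Rela promoter lies at chr19:5637291-5637590 on the plus strand.
Tnfaip3: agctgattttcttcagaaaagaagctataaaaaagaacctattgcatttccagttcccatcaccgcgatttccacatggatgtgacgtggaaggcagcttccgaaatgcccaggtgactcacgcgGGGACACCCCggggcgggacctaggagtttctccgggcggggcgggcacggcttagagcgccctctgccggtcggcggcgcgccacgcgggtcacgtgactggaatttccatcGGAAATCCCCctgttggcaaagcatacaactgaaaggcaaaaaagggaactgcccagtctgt
Nfkbia: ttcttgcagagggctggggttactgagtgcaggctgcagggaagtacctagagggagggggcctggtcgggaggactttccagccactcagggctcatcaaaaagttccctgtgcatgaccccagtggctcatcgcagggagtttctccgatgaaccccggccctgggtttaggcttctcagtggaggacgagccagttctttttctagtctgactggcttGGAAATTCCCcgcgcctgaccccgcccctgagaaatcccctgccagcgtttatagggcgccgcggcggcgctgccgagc
Tnip1: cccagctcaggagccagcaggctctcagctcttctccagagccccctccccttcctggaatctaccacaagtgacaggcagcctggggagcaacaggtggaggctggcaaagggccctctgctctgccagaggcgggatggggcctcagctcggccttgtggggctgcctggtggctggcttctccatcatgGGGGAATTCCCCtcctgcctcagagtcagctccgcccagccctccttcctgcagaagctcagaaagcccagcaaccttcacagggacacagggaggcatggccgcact
Rela: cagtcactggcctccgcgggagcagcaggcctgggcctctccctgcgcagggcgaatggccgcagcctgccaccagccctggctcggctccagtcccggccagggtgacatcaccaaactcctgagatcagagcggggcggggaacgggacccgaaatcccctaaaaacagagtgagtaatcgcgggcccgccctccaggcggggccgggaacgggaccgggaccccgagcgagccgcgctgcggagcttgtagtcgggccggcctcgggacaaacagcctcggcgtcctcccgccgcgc
A match describes these letters only, and binding was not measured.

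The deposited counts summed to between 5059917 and 5356505 per LT-HSC KO library, 4976459 and 5479731 per LT-HSC WT library, 12400764 and 12504581 per MPP KO library, and 11928659 and 12030265 per MPP WT library. Levels are given as CPM, counts scaled to a library total of 1000000. Tet1 had 336 and 379 counts in LT-HSC KO and 332 and 428 in LT-HSC WT, a log2 fold change of -0.09 (SE 0.19, edgeR adjusted p = 0.7654). In MPP it had 765 and 855 counts in KO and 1207 and 1323 in WT (log2 fold change -0.62, SE 0.10, edgeR adjusted p = 0.02817). Counts over the whole gene include whatever part was not deleted, so they check the labels only in part, and in LT-HSC they do not separate the genotypes. KO and WT mean the libraries so labelled throughout. The summed level of 4 Y-linked genes was 12.3 and 14.4 CPM in LT-HSC KO against 143 and 177 CPM in LT-HSC WT. For MPP these sums were 2.88 and 5.56 CPM in KO libraries against 166 and 174 CPM in WT libraries. The sex of the cells and the genotype therefore cannot be told apart.

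In LT-HSC, 8 of the 10 genes were lower in KO than in WT and none was higher. The feedback inhibitors Tnfaip3 and Nfkbia and the subunit Relb differed most, by more than 1 on the log2 scale. Among all 15684 genes tested, 10.9% were lower and 22.5% were higher at the same threshold, a Benjamini-Hochberg adjusted p under 0.05 in edgeR's quasi-likelihood test. The median log2 fold change was -0.78 over the 10 genes and 0.03 over all genes tested. Among the 3847 genes with a mean log2 CPM above 6, where 7 of the 10 genes lie, the median was -0.19, 17.8% were lower and 5.15% were higher. In bulk RNA, fewer cells of a type and less RNA per cell cannot be told apart.

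Tnfaip3 (ENSMUSG00000019850, chr10:18720716-18735463; gene positions are on mm9, the build of the files) encodes A20, a ubiquitin-editing enzyme that shuts off signalling from TNF and Toll-like receptors upstream of IKK. It had 126.6 and 144.1 CPM in LT-HSC KO, against 351.7 and 384 CPM in LT-HSC WT. Both KO libraries lay at well under the level of either WT library. The log2 fold change was -1.45 (SE 0.16, edgeR adjusted p = 0.0004951), or 2.72-fold lower. Of the 10 genes it had the lowest log2 fold change, at the 2.51 percentile of all genes tested.

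Nfkbia (ENSMUSG00000021025, chr12:56590398-56593634) encodes IkB-alpha, the main cytoplasmic inhibitor and an early target of NF-kB. It had 59.93 and 55.73 CPM in LT-HSC KO, against 133.6 and 124.2 CPM in LT-HSC WT. The groups did not overlap, and the replicates of each lay close together. The log2 fold change was -1.16 (SE 0.17, edgeR adjusted p = 0.001826), or 2.23-fold lower.

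Nfkbiz (ENSMUSG00000035356, chr16:55811488-55839012) encodes IkB-zeta, a nuclear member of the IkB family that acts on selected targets rather than holding dimers in the cytoplasm. Its level was 80.84 and 96.84 CPM in LT-HSC KO and 138.5 and 168.8 CPM in LT-HSC WT. All KO values were below all WT values (log2 fold change -0.79, SE 0.17, edgeR adjusted p = 0.006874). Nfkbie (ENSMUSG00000023947, chr17:45692665-45700118) encodes IkB-epsilon, a further cytoplasmic inhibitor. It had 15.87 and 22.33 CPM in LT-HSC KO and 25 and 30.14 CPM in LT-HSC WT, with a log2 fold change of -0.53 (SE 0.25, edgeR adjusted p = 0.1419) that did not pass the test. Tnip1 (ENSMUSG00000020400, chr11:54724289-54776419) encodes ABIN-1, a ubiquitin-binding partner of A20. Its 67.39 and 63.24 CPM in LT-HSC KO stood close to the 78.47 and 73.14 CPM in LT-HSC WT, and the log2 fold change of -0.22 (SE 0.17, edgeR adjusted p = 0.3772) did not pass the test and turned to 0.28 with scaling on stem and progenitor markers.

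**Figure D1:**
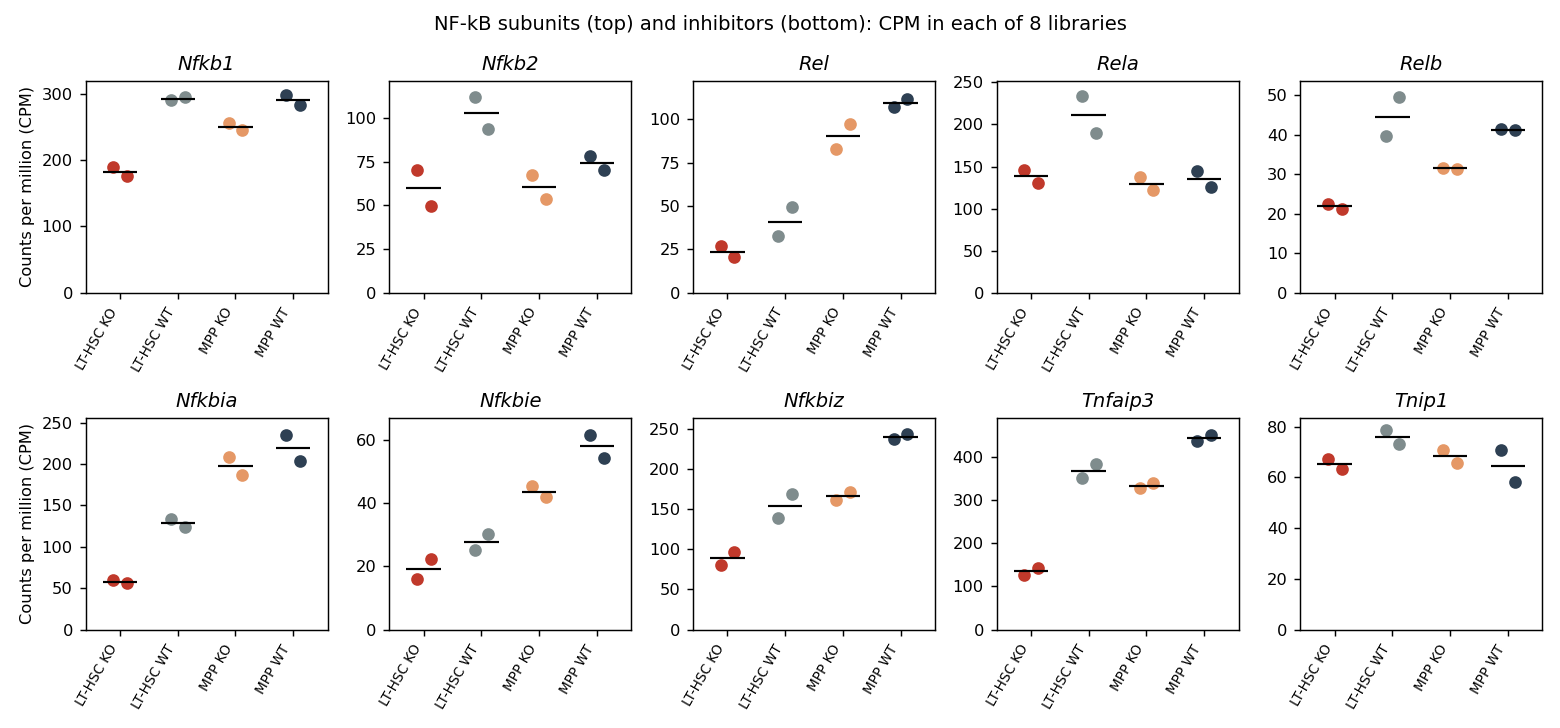
Level of each of the 10 genes in CPM (vertical axes, linear from 0) in each of the 8 libraries, subunits in the upper row and inhibitors in the lower. Points are libraries and bars are group means. In LT-HSC, KO points lie below WT points in all 10 panels, and in MPP they overlap for Nfkbia, Rela and Tnip1.

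All 5 subunits were lower in LT-HSC KO. Relb (ENSMUSG00000002983, chr7:20191566-20214787), the partner of the processed product of Nfkb2 in the non-canonical pathway, had 22.59 and 21.34 CPM in LT-HSC KO and 39.6 and 49.63 CPM in LT-HSC WT. The KO libraries lay close together below both WT libraries (log2 fold change -1.02, SE 0.21, edgeR adjusted p = 0.006832).

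Nfkb1 (ENSMUSG00000028163, chr3:135247619-135354511), which encodes p105 and its product p50, had 189.1 and 176.1 CPM in LT-HSC KO against 290 and 294.8 CPM in LT-HSC WT. The groups were far apart relative to their replicates (log2 fold change -0.68, SE 0.16, edgeR adjusted p = 0.01083). Nfkb2 (ENSMUSG00000025225, chr19:46379227-46386580), which encodes p100 and its product p52, had 70.2 and 49.8 CPM in LT-HSC KO against 112.2 and 93.84 CPM in LT-HSC WT. Its KO libraries differed from each other about as much as its WT libraries did, and the groups did not overlap (log2 fold change -0.78, SE 0.23, edgeR adjusted p = 0.02926). Nfkb2 overlaps Psd on the other strand. Psd had 86 and 123 counts in LT-HSC KO and 126 and 169 in LT-HSC WT. The sources used here do not say whether counting used the strand, so the split of reads between these 2 genes is uncertain.

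Rela (ENSMUSG00000024927, chr19:5637483-5648130), which encodes p65, the activating partner of p50, had 145.8 and 131 CPM in LT-HSC KO against 234 and 189.5 CPM in LT-HSC WT. Rel (ENSMUSG00000020275, chr11:23641514-23670970), which encodes the lymphoid subunit c-Rel, had 27.07 and 20.55 CPM in LT-HSC KO against 33.03 and 49.23 CPM in LT-HSC WT. The groups did not overlap in either gene, and the lower WT library of Rel stood nearer to the KO libraries than to the other WT library. The log2 fold change was -0.62 for Rela (SE 0.19, edgeR adjusted p = 0.03561) and -0.77 for Rel (SE 0.26, edgeR adjusted p = 0.04783).

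KO lay below WT without overlap in all 10 genes, as it did in 29.4% of all genes tested in LT-HSC. It lay above WT without overlap in 36.4% of all genes tested. With 1 library left out, the lone library of its group takes its spread from the other group. Whether a gene passes then depends on which library is left out. Lower calls over all genes fell without either LT-HSC KO library and did not fall without either LT-HSC WT library. Tnfaip3 and Nfkbia passed in all 4 such fits. Without LT-HSC KO replicate 1, 3 genes were lower, and the edgeR adjusted p was 0.126 for Nfkbiz, 0.0912 for Nfkb1, 0.0963 for Rel, 0.134 for Rela and 0.0618 for Relb. Without LT-HSC KO replicate 2, 3 genes were again lower, and it was 0.172 for Nfkb1, 0.255 for Nfkb2, 0.315 for Rel, 0.27 for Rela and 0.0745 for Relb. The call of Rela also ended without LT-HSC WT replicate 1 (0.15), and that of Rel without LT-HSC WT replicate 2 (0.0993), with library totals alone (0.0508) and in DESeq2 (0.0608). With no filter on low counts 5 genes were lower, and the edgeR adjusted p was 0.0653 for Nfkb2, 0.0742 for Rel and 0.0644 for Rela. The direction of each of the 10 genes was negative in every one of these fits.

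Other measures moved with genotype in LT-HSC. Reads over 28 very long genes of neurons, not specific to blood cells, had a median density of 0.408 and 0.343 counts per kb of gene span in LT-HSC KO, against 0.0567 and 0.0426 in LT-HSC WT, and 27 of the 28 were higher. In MPP this density lay between 0.0386 and 0.0446 in all 4 libraries. Reads at this density would make up 0.393% to 9.71% of the members' own counts in LT-HSC KO. Subtracted from every gene in proportion to its span, which also changes the library totals, at a density summed over the 28 genes, they left Tnfaip3 as the 1 gene lower (edgeR adjusted p = 0.0314), with Nfkbia at 0.0578 and Relb at 0.0671. At the median density 3 of the 10 genes were lower, Tnfaip3, Nfkbia and Relb. Their log2 fold changes were then -1.25, -0.96 and -0.91. Nfkbiz had -0.61 (edgeR adjusted p = 0.0534) and Nfkb1 -0.53 (edgeR adjusted p = 0.0584). Scaling the libraries on 11 stem and progenitor markers moved the median of all genes to 0.53, and the median of the 10 genes to -0.29. Tnfaip3 at -0.94 and Nfkbia at -0.66 were then lower, and the other 6 calls ended. Lower calls over all genes fell too, from 1716 in the TMM fit. They were 65 at the summed density, 780 at the median density and 412 with marker scaling. The median density and the marker scaling were chosen after the data were seen.

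**Figure D2:**
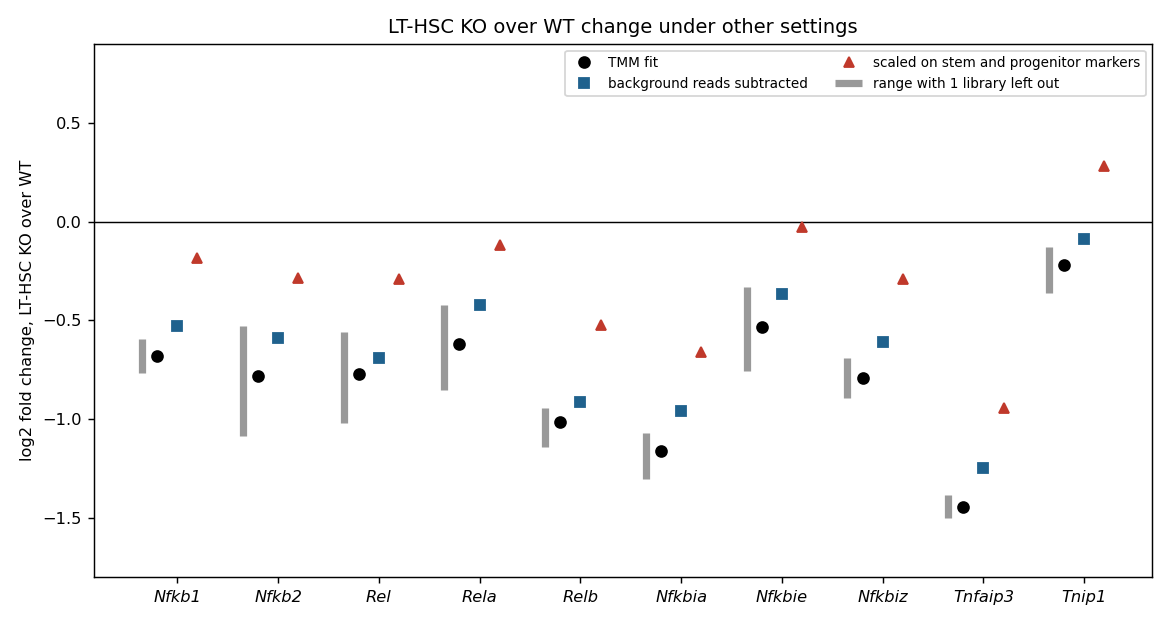
Log2 fold change of LT-HSC KO over WT for each of the 10 genes (vertical axis) in the TMM fit, after subtraction of background reads at the median density, and with scaling on stem and progenitor markers; grey bars span the fits that leave out 1 library. Tnfaip3 lies lowest in every setting drawn, and Tnip1 at 0.28 is the one value above 0.

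The labelled cell type was checked by marker lists. Stem and progenitor markers had 5 of 11 lower and 1 higher in LT-HSC KO, with a summed level of 1930 and 2040 CPM in KO against 2730 and 2940 CPM in WT. Megakaryocyte markers had 6 of 8 lower, summing to 965 and 896 CPM in KO against 1880 and 1730 CPM in WT. Erythroid markers had 12 of 12 higher, summing to 5900 and 5170 CPM in KO against 1500 and 1360 CPM in WT. Bone and niche stroma markers had 7 of 8 higher, summing to 691 and 491 CPM in KO against 41.4 and 38 CPM in WT, where Cxcl12 and Bglap were at 0. Granulocyte and monocyte markers had 5 of 9 tested higher and 1 lower, while their sum was 235 and 194 CPM in KO against 325 and 232 CPM in WT, with S100a8, Ngp and Camp at 0 in WT. Most of that sum came from Lyz2, at 105 and 60.7 CPM in KO against 219 and 126 CPM in WT, and Csf3r, at 73.7 and 76.9 CPM in KO against 88.9 and 87 CPM in WT. Macrophage markers had 2 of 5 tested higher and 1 lower and summed to 66.6 and 69.4 CPM in KO and 48.4 and 60.3 CPM in WT, where the 3 C1q genes were at 0. B lineage markers had 4 of 6 tested higher and 1 lower and summed to 69.6 and 63.6 CPM in KO and 40.1 and 38.6 CPM in WT, with Vpreb1 and Igll1 at 0 in WT. T and NK lineage markers had 1 of 4 tested higher and 2 lower and summed to 23.9 and 24.5 CPM in KO and 70.6 and 77.8 CPM in WT, with Cd3g and Cd8a at 0 in WT. Endothelial markers had 2 of 6 higher, Cdh5 and Flt1, and none lower, and summed to 175 and 168 CPM in KO and 190 and 195 CPM in WT. Immediate early genes, which respond within minutes to stimuli and to cell handling, had 14 of 15 lower, summing to 9340 and 10400 CPM in KO against 16000 and 19400 CPM in WT. The part of these cell types and of handling in the NF-kB result was not tested.

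In MPP, Nfkbiz was the one gene of the 10 that passed the test, lower in KO, and none was higher. Among all 14902 genes tested, 2.46% were lower and 4.74% were higher. The median log2 fold change was -0.21 over the 10 genes and -0.01 over all genes tested. Nfkbiz had 160.8 and 171.6 CPM in MPP KO against 237.1 and 243.1 CPM in MPP WT. Each pair of replicates lay close together and the groups were apart (log2 fold change -0.45, SE 0.07, edgeR adjusted p = 0.02999). This call ended without MPP KO replicate 1 (edgeR adjusted p = 0.143), MPP KO replicate 2 (0.117), MPP WT replicate 1 (0.325) and MPP WT replicate 2 (0.316), and in the fit of all 8 libraries (0.0937), with the direction kept. Without either MPP WT library none of all genes tested passed, so those fits could not keep a call; lower calls over all genes were 55 and 46 without MPP KO replicates 1 and 2, against 366 with all 4 libraries. Markers of other cell types moved in MPP too: 6 of 12 erythroid markers were higher in KO (sums 1420 and 1330 CPM in KO, 1030 and 958 CPM in WT), and 4 of 10 granulocyte and monocyte markers tested (2080 and 2060 CPM in KO, 1330 and 1290 CPM in WT, where Ltf was at 0). Also higher were 3 of 8 B lineage markers (525 and 530 CPM in KO, 423 and 406 CPM in WT), 3 of 8 macrophage markers (146 and 158 CPM in KO, 132 and 144 CPM in WT) and 2 of 9 T and NK lineage markers (115 and 113 CPM in KO, 130 and 138 CPM in WT). Stem and progenitor markers had 3 of 11 lower (1720 and 1670 CPM in KO, 1990 and 1930 CPM in WT). Their part in the MPP values was not tested.

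Of the other inhibitors, Tnfaip3 had 329.2 and 339.8 CPM in MPP KO against 437.6 and 452.4 CPM in MPP WT. The groups did not overlap, and the log2 fold change of -0.34 (SE 0.07, edgeR adjusted p = 0.0511) was just outside the threshold; it passed under 3 of 13 alternatives. Nfkbie had 45.26 and 41.77 CPM in MPP KO against 61.45 and 54.28 CPM in MPP WT (log2 fold change -0.33, SE 0.10, edgeR adjusted p = 0.1069). Nfkbia had 208.1 and 187.3 CPM in MPP KO and 234.9 and 204.3 CPM in MPP WT, which overlapped (log2 fold change -0.08, SE 0.10). Tnip1 had 70.85 and 65.56 CPM in MPP KO and 70.67 and 58.1 CPM in MPP WT, which also overlapped (log2 fold change 0.16, SE 0.11).

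Of the subunits, Relb had 31.67 and 31.29 CPM in MPP KO against 41.5 and 41.15 CPM in MPP WT (log2 fold change -0.32, SE 0.08, edgeR adjusted p = 0.07613). Its replicates nearly coincided within each group. Nfkb1 had 255.5 and 244.9 CPM in MPP KO against 297.9 and 283 CPM in MPP WT, and Rel had 83.09 and 97.66 CPM in MPP KO against 107.2 and 111.8 CPM in MPP WT. Nfkb2 had 67.42 and 53.38 CPM in MPP KO against 78.3 and 70.32 CPM in MPP WT. These 3 genes had log2 fold changes between -0.22 and -0.14, and none passed the test. Rela had 137.8 and 121.6 CPM in MPP KO and 144.9 and 125.8 CPM in MPP WT, which overlapped (log2 fold change 0.02, SE 0.10). In CPM, KO lay below WT without overlap in 7 of the 10 genes, and in 37.8% of all genes tested in MPP. It lay above WT without overlap in 20.9% of all genes tested. CPM uses library totals alone, while the fit also uses TMM factors. These were 0.977 and 0.97 in MPP KO and 1.029 and 1.025 in MPP WT. CPM therefore places MPP KO lower against WT than the fit does.

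**Figure D3:**
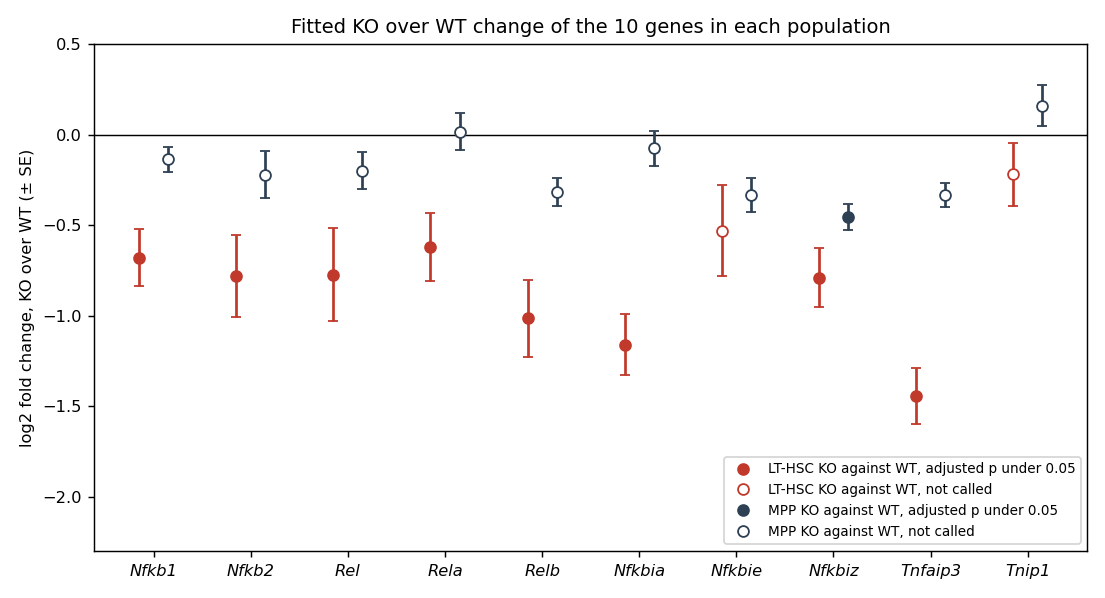
Log2 fold change of KO over WT (vertical axis) with its standard error for the 10 genes in LT-HSC and in MPP; filled points have an edgeR adjusted p under 0.05. In LT-HSC all 10 points lie below 0 and 8 are filled; in MPP 8 lie below 0 and Nfkbiz is filled.

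The KO difference itself was compared between the populations in a fit of all 8 libraries over the 16551 genes tested of those in both tables. That fit uses 1 estimate of spread per gene for both populations. The common coefficient of variation was 0.185 in LT-HSC alone, 0.107 in MPP alone and 0.145 in this fit. Its p-values, also those between WT populations, may thus take the spread in LT-HSC as too small. The difference was lower in LT-HSC than in MPP for 4 of the 10 genes and higher for none, against 8.5% lower and 13.6% higher among all genes tested. Among the 3860 genes with a mean log2 CPM above 6, 13% were lower and 3.58% higher with a median of -0.17, and 3 of the 7 members there were lower. The log2 difference, LT-HSC minus MPP, was -1.12 for Tnfaip3 (SE 0.14, edgeR adjusted p = 0.003039) and -1.09 for Nfkbia (SE 0.17, edgeR adjusted p = 0.005421). For Relb it was -0.71 (SE 0.19, edgeR adjusted p = 0.0326) and for Nfkb1 -0.55 (SE 0.14, edgeR adjusted p = 0.0237). The median was -0.58 over the 10 genes and 0.03 over all genes tested. Rela had -0.64 (edgeR adjusted p = 0.06103), and the other 5 genes ranged from -0.59 for Rel to -0.20 for Nfkbie without passing the test. Tnfaip3 and Nfkbia passed under every alternative run for this comparison, with edgeR or DESeq2 adjusted p up to 0.0188 for Tnfaip3 and 0.0489 for Nfkbia. The calls of both Nfkb1 and Relb ended without LT-HSC KO replicate 2 (0.0641 and 0.0797), MPP KO replicate 1 (0.13 and 0.112), MPP KO replicate 2 (0.0657 and 0.0922), MPP WT replicate 1 (0.0983 and 0.108) or MPP WT replicate 2 (0.122 and 0.129), and with background reads subtracted at the median density (0.0931 and 0.0634). Lower calls over all genes were between 334 and 1716 in the fits with 1 library left out, against 1407 with all 8. The call of Relb ended also without LT-HSC KO replicate 1 (0.0656) and with library totals alone (0.0636). Scaling on stem and progenitor markers was run within each population only, not for this comparison. Other lists differed in the same fit: 13 of 15 immediate early genes and 6 of 8 megakaryocyte markers were lower, with medians of -1.14 and -1.37. Of the erythroid markers 11 of 12 were higher, and of the very long genes 26 of 28. Their part in the NF-kB result was not tested. The 2 populations also differ in cell number and depth, which cannot be told apart from the population.

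Between the WT populations, 5 of the 10 genes were lower in LT-HSC than in MPP and 1 was higher, against 21.1% lower and 18.3% higher among all 16551 genes tested. Rel had 33.03 and 49.23 CPM in LT-HSC WT against 107.2 and 111.8 CPM in MPP WT, and Nfkbie 25 and 30.14 CPM against 61.45 and 54.28 CPM. In both genes each LT-HSC library was below each MPP library. The log2 fold change was -1.45 for Rel (SE 0.19, edgeR adjusted p = 0.0005702) and -1.11 for Nfkbie (SE 0.17, edgeR adjusted p = 0.001589). Nfkbia at -0.80 (edgeR adjusted p = 0.001287) and Nfkbiz at -0.68 (edgeR adjusted p = 0.003128) were lower too. Tnfaip3 at -0.31 (edgeR adjusted p = 0.03992) passed narrowly, and its adjusted p was 0.0544 to 0.201 with any 1 WT library left out, 0.0627 with RLE size factors, 0.0695 with library totals alone, 0.0612 in DESeq2, 0.146 in the 4 WT libraries alone, and 0.0878 and 0.0642 with background reads subtracted at the summed and the median density. Rela was higher in LT-HSC WT, with 234 and 189.5 CPM against 144.9 and 125.8 CPM in MPP WT (log2 fold change 0.62, SE 0.15, edgeR adjusted p = 0.012). That call ended without LT-HSC WT replicate 1 (0.0665), MPP WT replicate 1 (0.0524) or MPP WT replicate 2 (0.0941). Nfkb1, Nfkb2, Relb and Tnip1 did not pass, with log2 fold changes of -0.02, 0.44, 0.07 and 0.21. That of Nfkb1 was 0.02 with RLE size factors and 0.01 with library totals alone.

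Levels of different genes were set side by side as CPM per kb of exon, with exon lengths from GENCODE M21. The length is the union of all exons annotated for a gene, from 1610 bases for Nfkbia to 12061 for Nfkb1. The transcript forms in use were not measured, so the order of the genes depends on this choice of length. In LT-HSC KO, Rela came first at 45.0 ± 3.46 and Nfkbia second at 35.9 ± 1.84 CPM per kb (SD, n = 2 each). Tnfaip3, Tnip1 and Nfkbiz followed at 18.7, 18.4 and 17.7 CPM per kb, with overlapping libraries. Rel was last at 3.19 ± 0.62 CPM per kb. In LT-HSC WT, Nfkbia came first at 80.0 ± 4.17, then Rela at 69.0 ± 10.3 and Tnfaip3 at 50.9 ± 3.11 CPM per kb (SD, n = 2 each), with no overlap between neighbours. Nfkb1, Nfkb2 and Tnip1 overlapped further down at 24.2, 22.5 and 21.4 CPM per kb. In MPP, Nfkbia led with 122.0 ± 9.19 in KO and 136.0 ± 13.4 CPM per kb in WT, and Tnfaip3 was second with 46.3 ± 0.99 in KO and 61.6 ± 1.41 CPM per kb in WT (SD, n = 2 each). Relb was last in both, at 8.1 in MPP KO and 10.6 CPM per kb in MPP WT.

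Among the subunits, the shares of Rela, Nfkb1 and Rel in the transcript pool stood apart between the populations and overlapped between the LT-HSC genotypes. The share of Relb was lower in each KO library than in either WT library of its population. Rela made up 54.0% and 55.8% of the summed CPM per kb of the 5 subunits in LT-HSC KO, against 54.7% and 49.0% in LT-HSC WT, which overlapped. It made up 44.9% and 42.7% in MPP KO and 41.4% and 38.9% in MPP WT, below all 4 LT-HSC libraries. Rel made up 4.13% and 3.6% in LT-HSC KO, 3.17% and 5.23% in LT-HSC WT, 11.1% and 14.1% in MPP KO, and 12.6% and 14.2% in MPP WT. Nfkb1 made up 17.2% to 19.4% in LT-HSC libraries and 21.2% to 22.3% in MPP libraries. Relb made up 6.61% and 7.19% in LT-HSC KO against 7.32% and 10.2% in LT-HSC WT. In MPP its share was 8.15% and 8.69% in KO against 9.38% and 10.1% in WT. These shares rest on the same exon lengths, are a description and were not tested.

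**Figure D4:**
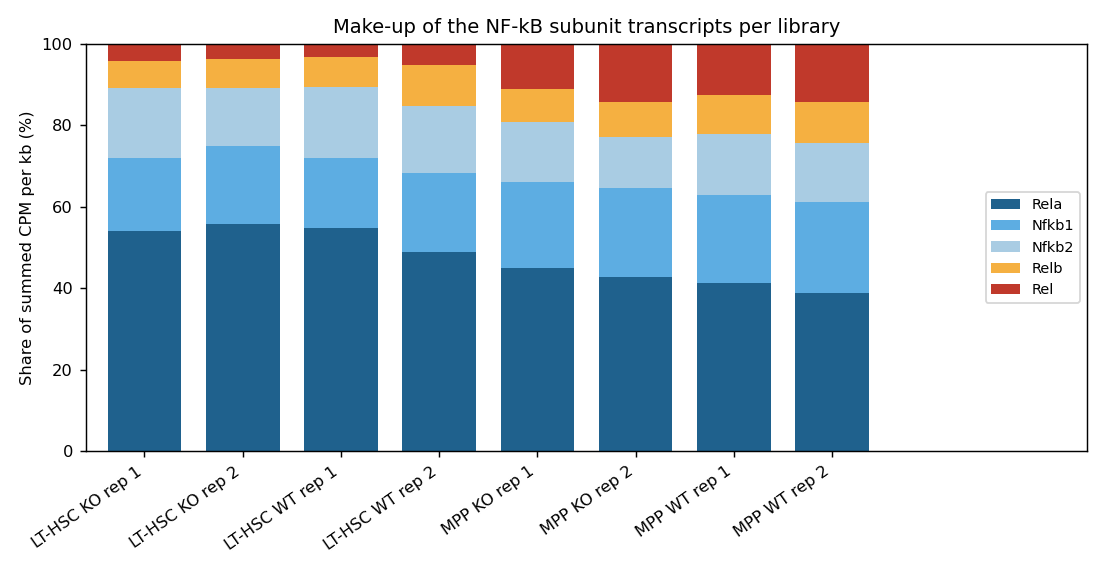
Share of the summed CPM per kb of the 5 NF-kB subunit genes (vertical axis, percent) in each of the 8 libraries. Rel takes 3.17% to 5.23% in LT-HSC libraries and 11.1% to 14.2% in MPP libraries.

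The summed transcripts of the inhibitors were also set against those of the subunits within each library. CPM was summed without regard to exon length, so long transcripts weigh more. Nfkbiz was counted with the inhibitors although it does not hold dimers in the cytoplasm. The summed CPM of the 5 inhibitors divided by that of the 5 subunits was 0.771 and 0.958 in LT-HSC KO, against 1.03 and 1.15 in LT-HSC WT. It was 1.41 and 1.47 in MPP KO, against 1.56 and 1.6 in MPP WT. The KO libraries were below the WT libraries in both populations. Tnfaip3 weighs heavily in these sums. In LT-HSC KO it made up 126.6 of 350.6 and 144.1 of 382.2 CPM of the inhibitors. In LT-HSC WT it made up 351.7 of 727.3 and 384 of 780.3 CPM. The LT-HSC ratio therefore does not show that the inhibitors fell as a class against the subunits. The ratio of Nfkbia to Rela counts was 0.411 and 0.425 in LT-HSC KO against 0.571 and 0.655 in LT-HSC WT. The same ratio in MPP was 1.51 and 1.54 in KO against 1.62 and 1.62 in WT. The ratio of Tnfaip3 to its partner Tnip1 was 1.88 and 2.28 in LT-HSC KO against 4.48 and 5.25 in LT-HSC WT. For MPP it was 4.65 and 5.18 in KO against 6.19 and 7.79 in WT. These ratios do not depend on library scaling, and they show unequal change rather than which of the genes changed.

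The genes around the 10 were counted by role. Of 92 other pathway genes, 84 were in the LT-HSC table and 77 were tested, of which 23 were lower and 4 higher in KO. Their median log2 fold change was -0.32, against 10.9% lower, 22.5% higher and a median of 0.03 over all genes tested, and 17.8% lower and a median of -0.19 over genes with a mean log2 CPM above 6. In MPP, 83 were tested, of which 6 were lower and 2 were higher, with a median of -0.04, against 2.46% lower, 4.74% higher and a median of -0.01 over all genes tested. Counts in lists this small are a description beside those shares.

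Of 6 further family members, 3 were lower and 1 was higher in LT-HSC KO. Bcl3, a nuclear IkB protein that partners p50 and p52, had 9.52 and 9.09 CPM in LT-HSC KO against 27.4 and 33 CPM in LT-HSC WT (log2 fold change -1.69, SE 0.26, edgeR adjusted p = 0.002002). Nfkbid, another nuclear IkB gene, had 127 and 117 CPM in LT-HSC KO against 236 and 232 CPM in LT-HSC WT (log2 fold change -0.94, SE 0.16, edgeR adjusted p = 0.003005). In both genes the KO libraries lay far below the WT libraries. Nfkbil1 was higher, with 20 and 24.9 CPM in LT-HSC KO against 10.9 and 13.5 CPM in LT-HSC WT (log2 fold change 0.88, SE 0.27, edgeR adjusted p = 0.0358). In MPP none of the 6 passed the test.

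Of 12 other brakes, 5 were lower in LT-HSC KO and none passed in MPP. Zfp36, which encodes the mRNA-destabilising protein tristetraprolin, had 786 and 904 CPM in LT-HSC KO against 1650 and 1900 CPM in LT-HSC WT (log2 fold change -1.07, SE 0.17, edgeR adjusted p = 0.002496). Zc3h12a, which encodes the RNase regnase-1, had 85.1 and 73.9 CPM in LT-HSC KO against 136 and 153 CPM in LT-HSC WT (log2 fold change -0.86, SE 0.17, edgeR adjusted p = 0.005115). N4bp1, a relative of regnase-1, had a log2 fold change of -0.73 (SE 0.17, edgeR adjusted p = 0.01047). The list held brakes of messenger RNA stability as well as of ubiquitin signalling. The 3 genes named, chosen by size of difference, belong to the mRNA side or are related to it. That does not hold for all 5 lower genes.

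The IKK complex and its kinases had none of 10 genes called in either population, with medians of -0.15 in LT-HSC and -0.05 in MPP. Upstream of it, 6 of 18 adaptors and ubiquitin ligases were lower in LT-HSC KO. The largest differences were in Malt1 (log2 fold change -0.98, SE 0.30, edgeR adjusted p = 0.03612), Tradd (-0.91, SE 0.29, edgeR adjusted p = 0.04114) and Bcl10 (-0.84, SE 0.23, edgeR adjusted p = 0.02299). Malt1 and Bcl10 act together in signalling from antigen receptors, and Tradd links TNF receptor 1 to its complex.

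Of 10 receptors tested in LT-HSC, 2 were lower and 1 was higher in KO, against 10.9% lower and 22.5% higher among all genes. Their median was -0.19, against 0.03 over all genes tested. Genes with a mean log2 CPM above 6 had a median near that of the receptors, but most of these receptors lay below that level. Tnfrsf1a, TNF receptor 1, had 70.9 and 68.4 CPM in LT-HSC KO against 124 and 114 CPM in LT-HSC WT (log2 fold change -0.78, SE 0.17, edgeR adjusted p = 0.008259), and Ltbr, the lymphotoxin beta receptor, had 26.1 and 27.7 CPM against 48.2 and 41.2 CPM (log2 fold change -0.74, SE 0.21, edgeR adjusted p = 0.02843). Both receptors were lower in each KO library than in either WT library. Of 4 ligands tested, Tnf was lower at 1.31 and 1.58 CPM in LT-HSC KO against 4.2 and 5.63 CPM in LT-HSC WT (log2 fold change -1.75, SE 0.50, edgeR adjusted p = 0.02676). Ltb, lymphotoxin beta, was lower at 23.9 and 28.1 CPM in LT-HSC KO against 47.4 and 54.5 CPM in LT-HSC WT (log2 fold change -0.97, SE 0.20, edgeR adjusted p = 0.006123).

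RANK ligand and its receptor went the other way. Tnfsf11 had 9.33 and 4.55 CPM in LT-HSC KO against 0.365 and 1.21 CPM in LT-HSC WT (log2 fold change 3.15, SE 0.68, edgeR adjusted p = 0.008134). Tnfrsf11a had 7.65 and 2.96 CPM in LT-HSC KO against 0.912 and 1.21 CPM in LT-HSC WT (log2 fold change 2.32, SE 0.65, edgeR adjusted p = 0.02557). Both genes were low throughout, and their 2 KO libraries differed from each other by a larger ratio than those of any of the 10 genes. Tnfsf11 is known from bone-forming cells, and the stroma markers summed to 691 and 491 CPM in the same LT-HSC KO libraries against 41.4 and 38 CPM in LT-HSC WT; their part in this result was not tested. In MPP, Il1r1, the interleukin 1 receptor, was lower at 63 and 68.3 CPM in KO against 107 and 114 CPM in WT (log2 fold change -0.67, SE 0.08, edgeR adjusted p = 0.01678), and so was Tlr1, a Toll-like receptor, at 1.52 and 1.53 CPM in KO against 3.6 and 3.99 CPM in WT (log2 fold change -1.23, SE 0.24, edgeR adjusted p = 0.04765).

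Of 17 other target genes tested in LT-HSC, 5 were lower and 1 was higher in KO. Their median was -0.15, against 0.03 over all genes tested. Genes with a mean log2 CPM above 6 had a median of -0.19, but most of these target genes lay below that level. Gadd45b, a stress response gene, had 7.84 and 5.93 CPM in LT-HSC KO against 27.6 and 31.1 CPM in LT-HSC WT (log2 fold change -2.08, SE 0.29, edgeR adjusted p = 0.00141). Irf1, an interferon regulatory factor, had 84.9 and 67.2 CPM in LT-HSC KO against 219 and 152 CPM in LT-HSC WT (log2 fold change -1.30, SE 0.24, edgeR adjusted p = 0.004384). Plk3, a stress kinase, had 26.9 and 19 CPM in LT-HSC KO against 60.8 and 44.6 CPM in LT-HSC WT (log2 fold change -1.21, SE 0.28, edgeR adjusted p = 0.01058). All 3 had KO libraries clearly under WT libraries. In MPP, 3 of 19 were lower and 1 was higher. Ptgs2, cyclooxygenase 2, had 94.2 and 105 CPM in MPP KO against 150 and 162 CPM in MPP WT (log2 fold change -0.57, SE 0.09, edgeR adjusted p = 0.02999). The chemokine Cxcl2 had 23.5 and 22.3 CPM in MPP KO against 36.9 and 34 CPM in MPP WT (log2 fold change -0.55, SE 0.09, edgeR adjusted p = 0.03519). The chemokine Ccl5 was higher, with 9.92 and 8.39 CPM in MPP KO against 4.53 and 3.74 CPM in MPP WT (log2 fold change 1.22, SE 0.18, edgeR adjusted p = 0.02803).

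**Figure D5:**
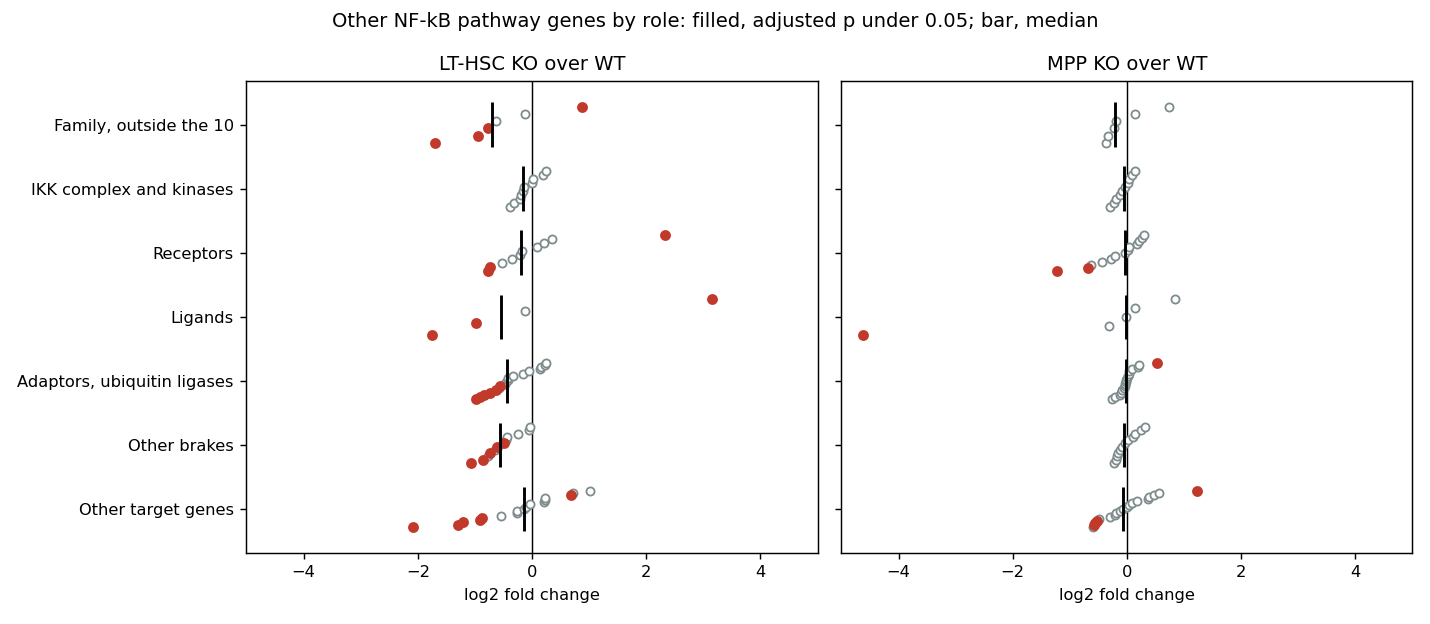
Log2 fold change of KO over WT (horizontal axes) for the NF-kB pathway genes outside the 10, by role, in LT-HSC (left) and MPP (right); each point is a gene, filled where the edgeR adjusted p is under 0.05, and bars are medians. Medians in LT-HSC run from -0.70 for the further family members to -0.15 for the other target genes and the IKK list; the lowest point in MPP is Lta, which had 0 and 0.0806 CPM in KO against 1.26 and 1.33 CPM in WT.

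Over the 8 libraries, the genes whose pattern lay nearest to that of Tnfaip3 were Sh3bgrl3, Bcl3, Sh2b2, Zfand2a and Eltd1. The Euclidean distance between centred log2 CPM values was 0.316, 0.341, 0.35, 0.368 and 0.397 in that order, the smallest 5 among 16551 genes. Pearson's r with Tnfaip3 was 0.987, 0.991, 0.99, 0.994 and 0.982 in the same order. The values share their libraries, depth and 4 groups, so the likeness is a description.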

How the data were processed

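PolyA RNA from sorted LT-HSC and MPP was sequenced as 50-base paired reads, per the labels' protocols. CASAVA, TopHat and the mm9 build are named in the submitters' processing notes; versions and the counting program, not given in the sources used here, could change single values. The authors deposited raw counts per gene in a table per population, with their own log2 fold changes, likelihood ratio scores and p-values, which were not used for results. Counts were fitted with edgeR 4.0.16 in R 4.3.3 (filterByExpr, TMM, quasi-likelihood F test), per population for KO against WT and over all 8 libraries, on genes in both tables, for the population contrasts. Standard errors were taken as the log2 fold change, unsigned, over the root of F. DESeq2 1.42.0 was an alternative, beside other normalizations, filters, left-out libraries, a replicate block and background subtraction. The pipeline was tested on simulated data. No value column lacked a sample. All replicate pairs differed beyond sampling noise. The members, gene lists and tests were chosen with earlier results of these data known. Pathway genes named are, per list and population, the called genes with the 3 largest absolute log2 fold changes at a mean CPM of at least 1. A gene that met this rule is not reported here.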

Additional observations from a re-analysis of the deposited data

Results flagged for a closer look

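Of the 10 genes, 4 had a KO difference that differed between the populations by the interaction test over all 8 libraries. The log2 difference, LT-HSC minus MPP, was -1.115 for Tnfaip3, -1.092 for Nfkbia, -0.71 for Relb and -0.55 for Nfkb1. For Tnfaip3 the log2 fold change was -1.45 in LT-HSC and -0.34 in MPP, for Nfkbia -1.16 and -0.08, for Relb -1.02 and -0.32, and for Nfkb1 -0.68 and -0.14. In LT-HSC both KO libraries were below both WT libraries for all 4 genes, and in MPP for all but Nfkbia. With 2 libraries in each group no single library could be tested as standing apart.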

How the results depend on the processing

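Of the 10 genes, 8 were lower in LT-HSC KO; the count was 5 with no filter on low counts, 1 with background reads subtracted by their summed density, 3 by their median density, 2 with scaling on stem and progenitor markers, and 3 to 7 with 1 library left out. Il1rapl1 held 77% of the summed long-gene counts in LT-HSC WT replicate 1, so the median density was added. Under the summed density Nfkbia had -0.96 (edgeR adjusted p = 0.0578). Tnfaip3 was lower under all 13 alternatives, from -1.50 to -0.94. In MPP the count of lower genes was 1; it was 3 with library totals alone, 2 in DESeq2, 0 in the fit of all 8 libraries, and 0 with any 1 library left out. For the difference between populations, 4 genes were lower, 2 with background reads subtracted by either density and 2 to 5 with 1 library left out. Between WT populations, 1 gene was higher, and 0 to 1 with 1 library left out.

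None of the values that turned sign passed in the TMM fit. Tnip1 in LT-HSC was 0.281 and Nfkbia in MPP 0.062 with marker scaling. Rela in MPP was -0.062 with library totals and -0.081 to 0.106, and Nfkbia in MPP -0.169 to 0.015, with 1 library left out; Rela was -0.075 without MPP KO replicate 1. Nfkbie in the interaction ranged from -0.466 to 0.018 with 1 library left out. Between WT populations, Nfkb1 was 0.018 with RLE size factors, 0.01 with library totals, 0.013 in DESeq2, 0.052 and 0.026 with background subtracted by summed and median density, and 0.031 in the 4 WT libraries alone, and Relb was -0.068 to 0.19 with 1 library left out.

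Deviations of same-numbered libraries correlated at 0.428 in LT-HSC, 0.683 in MPP, 0.401 between the KO and 0.382 between the WT groups of the populations, but the labels do not say that a number marks a shared animal or day. With the replicate block, 8 genes were lower and 1 was higher in MPP KO, and 9 were lower in LT-HSC KO. In the interaction 9 were lower, and between WT populations 2 were higher. Over all genes the block gave 3698 lower and 3536 higher calls in MPP, against 366 and 707 in the TMM fit. For the interaction it gave 3266 and 3632, against 1407 and 2256, and in LT-HSC 4010 and 4816, against 1716 and 3529. A block leaves 1 residual degree of freedom within a population.

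Over all genes, lower calls in LT-HSC ranged from 65 to 4010 (1716 in the TMM fit) and higher calls from 174 to 6093 (3529). In MPP they ranged from 0 to 3698 (366) and 0 to 3536 (707). For the interaction they ranged from 334 to 3266 (1407) and 465 to 3632 (2256), and between WT populations from 2035 to 4845 (3499) and 1636 to 4444 (3027). In LT-HSC the 65 and the 174 came with background reads subtracted by the summed density. The 4010 there, and the 3698 and 3536 in MPP, came with the replicate block. The causes were not tested.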
